A study of Mus musculus with 4 samples.

Results

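The G1 cyclins and their CDKs were the 10 genes Ccnd1, Ccnd2, Ccnd3, Ccne1, Ccne2, Cdk2, Cdk4, Cdk6, Cdk7 and Ccnh. They were chosen by name, by matching each symbol to its Ensembl identifier, and all 10 were present among the 14533 genes of the RNA-seq table. RNA was measured in mouse embryonic stem cells (ESCs) after more than 20 days of adaptation to 1 of 2 media, with 2 libraries for each. Serum ESCs grew in serum with LIF. 2i ESCs grew in serum-free Ndiff medium with LIF, the MEK inhibitor PD0325901 and the GSK3 inhibitor CHIR99021. Both groups were sorted for G1-phase, and the study used ESCs carrying the FUCCI reporters, fluorescent fusions that mark the cell-cycle phase. The samples carry a late G1-phase label, and the study's own description of these RNA data also gives late G1-phase, while the series' design text names early G1-phase. Cell line, sex and passage are not given in the labels, and the 2 libraries of a group are described as biological replicates. The comparison asks whether G1 cyclins and their kinases differ in RNA level between ESCs of the same phase in the 2 media.

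D-type cyclins are made in response to growth signals and bind CDK4 and CDK6, and E-type cyclins bind CDK2. Together these kinases phosphorylate the RB family of pocket proteins, which releases E2F transcription factors and lets the cell enter S-phase. E2F factors in turn activate the E-type cyclin genes. CDK7 and cyclin H are the catalytic and cyclin subunits of the CDK-activating kinase (CAK), which phosphorylates the other CDKs and is also part of the transcription factor TFIIH. ESCs in serum are known for a short G1-phase, and the MEK inhibitor in 2i medium blocks ERK signalling, a pathway through which growth signals reach the Ccnd1 gene in many cell types.

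The libraries held 18939401 to 26570098 whole reads over the table's genes. In serum replicate 1 the 10 most abundant genes took 50.6% of the reads, against 17.5% to 34.7% in the other 3 libraries. All 9 ESC markers were present in both groups, with Pou5f1 at normalized counts between 8452 and 20050. The sort and the label of one phase were checked with markers of later phases. The summed normalized counts of 12 G2 and mitosis genes were 26583 and 40671 in serum against 16225 and 13405 in 2i. In 10 of the 12 both serum libraries were above both 2i libraries, against 20.5% of all genes tested. The sums of 10 S-phase genes were 51805 and 59055 in serum against 30092 and 52477 in 2i, which overlap. Of the primitive endoderm markers, 4 of 7 were in the table, with summed counts of 72.0 and 109 in serum against 332 and 256 in 2i, and of the fibroblast markers 2 of 7, with sums of 230 and 193 in serum against 199 and 58.2 in 2i. The part of these differences in the results that follow was not tested. These are bulk samples, in which fewer cells of a type and less RNA per cell cannot be told apart.

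Most G1 cyclins and CDKs had a higher mean RNA level in serum ESCs, most of all Ccnd2 and the E-type cyclins Ccne1 and Ccne2, but none passed the main test. Values are normalized counts (reads divided by a size factor for each library), and differences are log2-fold changes of serum over 2i. By mean log2 value, 9 of the 10 were higher in serum, where 50.3% of all 13005 genes tested were. For 6 of the 10, namely Ccnd1, Ccnd2, Ccne1, Cdk6, Cdk7 and Ccnh, both serum libraries lay above both 2i libraries, where 20.5% of all genes tested did so. For 0 of the 10 did both 2i libraries lie above both serum libraries, against 19.4% of all genes tested. The median log2-fold change was 0.73 over the 10 genes and 0.0047 over all genes tested. limma with Benjamini-Hochberg adjustment over all genes tested called 0 of the 10, with adjusted p-values from 0.753 to 0.998, and called 0% of all genes higher in serum and 0.0154% higher in 2i (adjusted p below 0.05 and more than 2-fold). At an unadjusted p below 0.05, Ccnd2 and Ccne1 were higher in serum, 2 of the 10 against 2.97% of all genes tested. DESeq2 on the recovered reads called 1 of the 10, Ccnd2, where it called 0.561% of all genes higher in serum, and edgeR called none. In the remaining 4 genes, Ccnd3, Ccne2, Cdk2 and Cdk4, the libraries of the 2 groups overlapped. The G2 and mitosis markers also had higher means in serum, in 12 of 12 genes with a median log2-fold change of 1.60, and their part in these counts was not tested.

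**Figure D1:**
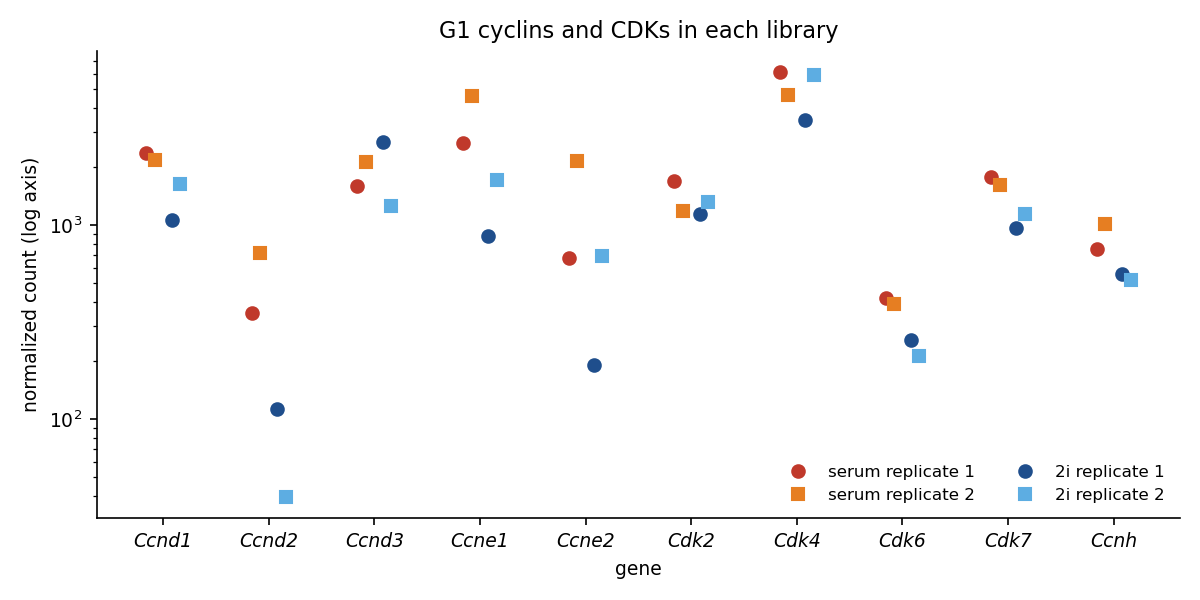
Normalized count (log axis) of each gene in each library, with serum replicates in red and orange and 2i replicates in dark and light blue. Ccnd2 shows the widest gap between the groups, from 351 in the lower serum library to 113 in the higher 2i library, while Ccnd3, Ccne2, Cdk2 and Cdk4 overlap.

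Among the D-type cyclins, Ccnd2 differed most between the media. Ccnd2 (ENSMUSG00000000184; mm9 chr6:127075797-127101066, minus strand) was at normalized counts of 351 and 713 in serum replicates 1 and 2, and of 113 and 39.8 in 2i replicates 1 and 2. Both serum libraries were high and both 2i libraries low, and the lower serum value was 3.10 times the higher 2i value. It was the only one of the 10 genes that was more than 2-fold higher in serum whichever serum and 2i library were set side by side, as 1.52% of all genes tested were. The log2-fold change was 2.88 ± 0.71 (SE from limma's moderated variance, n = 2 per group), with a 95% interval of 1.16 to 4.59. It was 2.14 to 3.62 when any 1 library was left out. The unadjusted p was 0.00589 and the adjusted p 0.753 in limma, while the adjusted p was 0.0370 in DESeq2, 0.692 in edgeR and 0.0212 in limma with the replicate number as a block. The value rests on few reads in 2i, 109 and 41, against 351 and 734 in serum.

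Ccnd1 (ENSMUSG00000070348; mm9 chr7:152115836-152125774, minus strand) encodes cyclin D1. Its normalized counts were 2346 and 2153 in serum against 1064 and 1623 in 2i. The groups did not overlap, but the gap between the 2i libraries was wider than that between serum and the nearer of them. The log2-fold change of Ccnd1 was 0.77 ± 0.45 (SE), with a 95% interval of -0.31 to 1.86 (limma, adjusted p = 0.753).

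Ccnd3 (ENSMUSG00000034165; mm9 chr17:47642000-47736632, plus strand) had the highest level per length of the D-type cyclins in both media. It was at normalized counts of 1589 and 2101 in serum against 2693 and 1252 in 2i. The 2i libraries held both the highest and the lowest value, so the groups overlapped entirely. Its log2-fold change was -0.0072 ± 0.53 (SE), and the 95% interval of -1.29 to 1.27 leaves room for a change of more than 2-fold either way. Without serum replicate 1 the value was 0.19, without 2i replicate 1 it was 0.54, and corrected for GC content and length it was 0.47.

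The make-up of the D-type cyclins was compared within each library, on the scale of normalized counts per kilobase of the longest annotated transcript, since a share does not depend on how a library was scaled. The shares were not corrected for GC content and length, a correction that moved the log2-fold change of Ccnd3 from -0.0072 to 0.47. Ccnd2 made up 4.28% and 7.38% of the summed D-type cyclin level in serum and 1.26% and 0.675% in 2i. These shares did not overlap, and Ccnd2 was a minor D-type cyclin in every library. Ccnd1 made up 43.5% and 34.0% in serum and 18.0% and 42.0% in 2i, and Ccnd3 52.2% and 58.7% in serum and 80.7% and 57.3% in 2i. Both overlapped between the groups, and 2i replicate 1 alone stood apart, with more Ccnd3 and less Ccnd1 than the other 3 libraries. Without 2i replicate 1, the difference in the share of Ccnd1, serum minus 2i, went from 8.75 to -3.24 percentage points. Counting error was small beside this: the widest 95% binomial (Wilson) interval of any gene's share of its family's reads was 4.92 points wide, and such intervals cover counting error only. The level of Ccnd1 over that of Ccnd2, per length, was 10.2 and 4.60 in serum against 14.3 and 62.2 in 2i, with no overlap.

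The E-type cyclins were the family with the largest ratio of group means among the 4 families. Ccne1 (ENSMUSG00000002068; mm9 chr7:38883003-38892553, minus strand) was at normalized counts of 2654 and 4612 in serum against 877 and 1710 in 2i. Both serum libraries were above both 2i libraries, and replicate 2 was above replicate 1 in both media. The log2-fold change of Ccne1 was 1.51 ± 0.55 (SE), with a 95% interval of 0.20 to 2.83 (limma, unadjusted p = 0.0301, adjusted p = 0.753). Leaving out 1 library at a time moved it between 1.03 and 1.99.

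Ccne2 (ENSMUSG00000028212; mm9 chr4:11118498-11131926, plus strand) was at normalized counts of 674 and 2141 in serum against 189 and 695 in 2i. Replicate 2 was again the higher in both media, and the lower serum library lay just below the higher 2i library, so the groups overlapped. Its log2-fold change of 1.73 ± 0.82 (SE) had a 95% interval of -0.24 to 3.69 (limma, adjusted p = 0.753). The log2-fold change of Ccne2 became 0.79 without 2i replicate 1 and 2.66 without 2i replicate 2.

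The mix of the 2 E-type cyclins did not separate the media. Ccne1 made up 85.5% and 76.4% of their summed level per kilobase in serum and 87.5% and 78.7% in 2i, so its share was higher in replicate 1 than in replicate 2 in both media and overlapped between them. The summed level was 1552 and 3018 normalized counts per kilobase in serum and 501 and 1086 in 2i, without overlap, and the ratio of the group means was 2.88. The summed D-type cyclin level was 1441 and 1695 in serum against 1579 and 1034 in 2i, which overlapped, with a ratio of means of 1.20. The summed E-type level over the summed D-type level was therefore 1.08 and 1.78 in serum against 0.318 and 1.05 in 2i, with the highest 2i value just below the lowest serum value. The summed E-type level over that of Cdk2, the kinase these cyclins bind, was 2.25 and 6.18 in serum against 1.06 and 2.01 in 2i. With 2 libraries against 2, the 3 possible splits hold a two-sided exact permutation test at a p of 0.333 or more, so these family values are given as a description. No correction for GC content and length was applied to them.

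**Figure D2:**
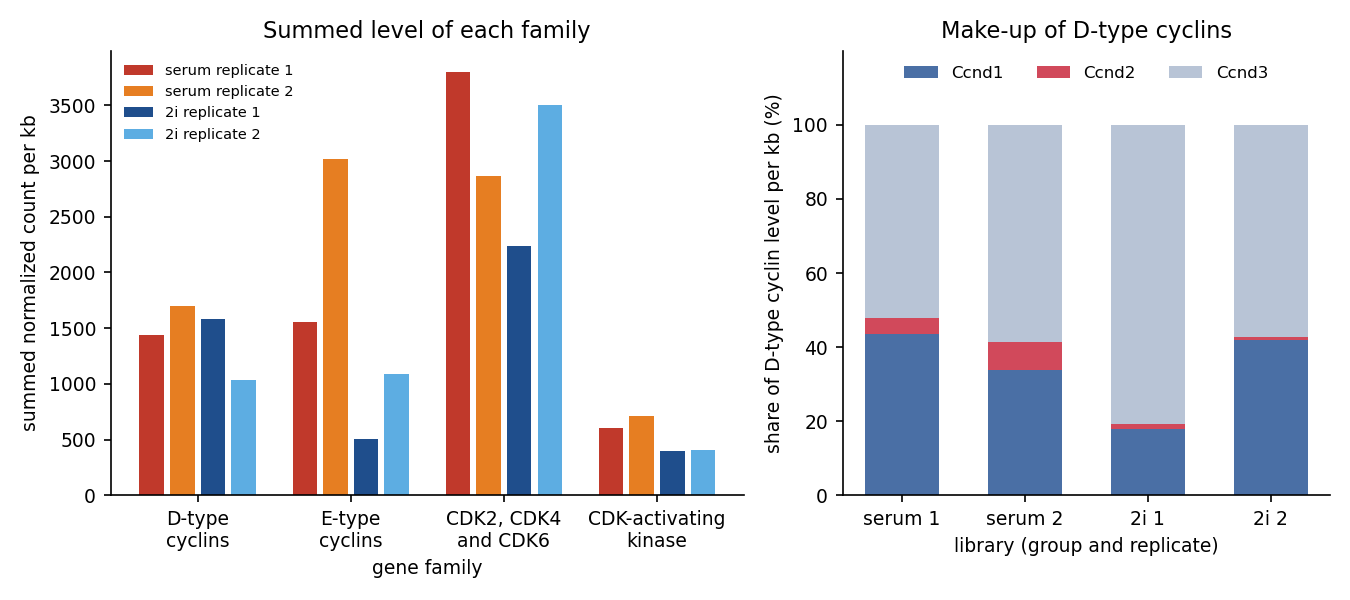
Left, summed normalized counts per kilobase of each family in each library, with serum in red and orange and 2i in dark and light blue. Right, the percentage of the summed D-type cyclin level in each library that came from Ccnd1, Ccnd2 and Ccnd3. The E-type cyclins and the CDK-activating kinase do not overlap between the media, the D-type cyclins and the CDKs do, and Ccnd2 takes 7.38% of the D-type level at most.

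The log2-fold changes of the G1 kinases Cdk2, Cdk4 and Cdk6 were 0.20, 0.23 and 0.80. Cdk4 (ENSMUSG00000006728; mm9 chr10:126500590-126504976, plus strand) was the most abundant of the 10 genes per length of the longest transcript in every library except serum replicate 2. There Ccne1 was slightly above it, at 2306 against 2274 normalized counts per kilobase. This exception rests on the length chosen: the longest transcripts have 2053 bases for Cdk4 and 2000 for Ccne1, the median coding ones 950 and 1304. The normalized counts of Cdk4 were 6153 and 4669 in serum against 3481 and 5966 in 2i. The groups overlapped, and the log2-fold change of 0.23 ± 0.51 (SE) had a 95% interval of -1.0 to 1.47 (limma, adjusted p = 0.925).

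Cdk2 (ENSMUSG00000025358; mm9 chr10:128134995-128142107, minus strand) was at normalized counts of 1680 and 1188 in serum against 1146 and 1314 in 2i. Its 4 libraries lay close together, with serum replicate 1 somewhat above the others. The difference of 0.20 ± 0.44 (SE) on the log2 scale had a 95% interval of -0.86 to 1.26 (limma, adjusted p = 0.925), and without serum replicate 1 it was -0.047.

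Cdk6 (ENSMUSG00000040274; mm9 chr5:3343893-3523218, plus strand), the other partner of the D-type cyclins, was at normalized counts of 419 and 390 in serum against 255 and 210 in 2i. The replicates of each group lay close together and the groups did not overlap. The log2-fold change of Cdk6 was 0.80 ± 0.46 (SE), with a 95% interval of -0.30 to 1.90 (limma, adjusted p = 0.753). Within the CDK2, CDK4 and CDK6 family, Cdk4 made up 75.9% to 83.0% of the summed level per kilobase in the 4 libraries, Cdk2 15.4% to 21.1% and Cdk6 1.61% to 3.64%, and each share overlapped between the media. The summed level of the 3 kinases was 3800 and 2867 normalized counts per kilobase in serum against 2235 and 3503 in 2i.

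**Figure D3:**
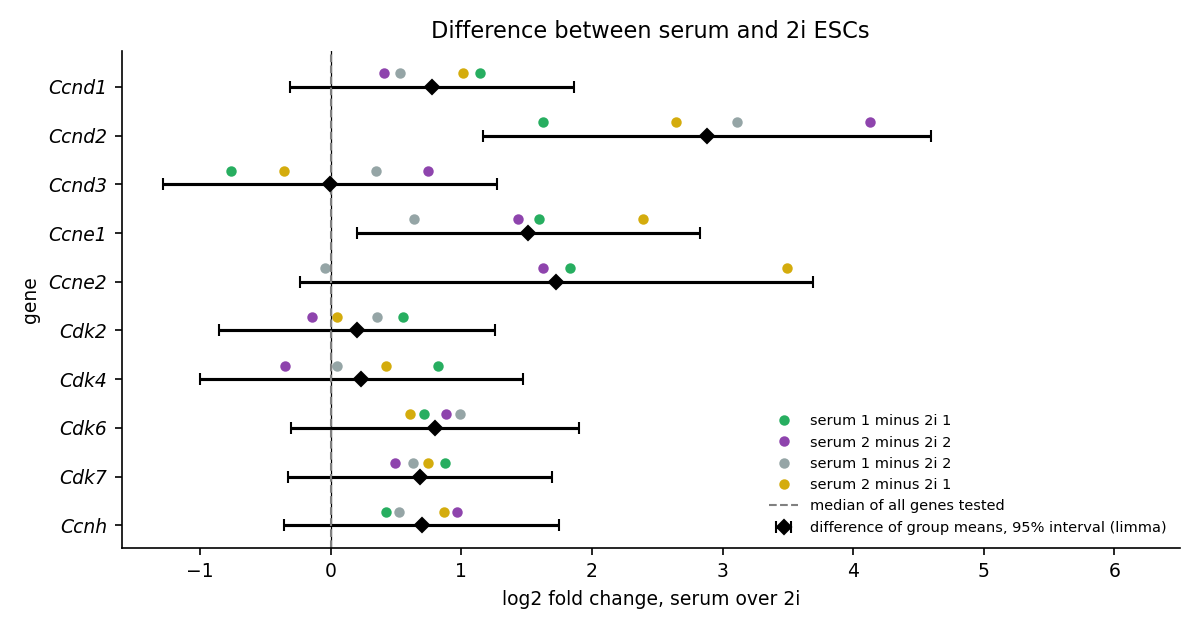
Log2-fold change of serum over 2i for each gene, as the difference of the group means with its 95% interval from limma (diamonds) and for each of the 4 pairs of 1 serum and 1 2i library (coloured points). The intervals of Ccnd2 (1.16 to 4.59) and Ccne1 (0.20 to 2.83) lie above 0, and those of the other 8 genes include it.

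The promoters of 4 kinase genes are shown because each holds a letter match to a site of a growth-regulated factor, and because the CDK genes split into ones whose libraries overlapped and ones whose libraries did not. They come from the RefSeq promoter table (GRCm38.p6; 250 bases before to 50 after each start), which matched 6 of the 10 genes: Cdk2, Cdk4, Cdk6, Cdk7, Ccne1 and Ccnd3, but not Ccnd1, Ccnd2, Ccne2 or Ccnh. Coordinates are from an exact match to mm9. Both strands were searched for the E-box CACGTG, to which MYC with MAX binds, for 4 E2F site forms (TTTCGCGC, TTTGGCGC, TTTCCCGC and TTTGCCGC) and for the CREB site TGACGTCA. Capitals mark the matches. Cdk4 is shown from position -250 to 30 from its start (mm9 chr10:126500341-126500620, plus strand), and the others as 60 bases around the match: Cdk6 (mm9 chr5:3343647-3343706, plus strand), Cdk7 (mm9 chr13:101500964-101501023, minus strand) and Cdk2 (mm9 chr10:128142214-128142273, minus strand).
Cdk4: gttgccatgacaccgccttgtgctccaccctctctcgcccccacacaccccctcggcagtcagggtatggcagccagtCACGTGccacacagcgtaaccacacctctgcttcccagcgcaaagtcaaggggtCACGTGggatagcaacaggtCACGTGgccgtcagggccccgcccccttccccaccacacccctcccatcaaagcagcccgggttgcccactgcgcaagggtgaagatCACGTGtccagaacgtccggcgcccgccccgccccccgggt
Cdk6: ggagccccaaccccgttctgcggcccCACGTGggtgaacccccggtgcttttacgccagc
Cdk7: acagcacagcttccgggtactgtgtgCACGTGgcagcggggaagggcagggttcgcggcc
Cdk2: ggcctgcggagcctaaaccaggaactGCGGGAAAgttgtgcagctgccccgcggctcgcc
The Cdk4 promoter held 4 E-boxes, starting at positions -172, -118, -98 and -11 from the start. Of the 32851 promoters in the table, 7.15% held at least 1 CACGTG and 0.0244% held 4 or more. Cdk6 and Cdk7 held 1 each, starting at positions -220 and -100. Cdk2 held the E2F form TTTCCCGC on the opposite strand, starting at position -140, and 1.07% of all promoters held that form and 2.26% any of the 4. No match was found in the windows of Ccne1 or Ccnd3. Only exact matches to the listed forms within 300 bases were sought, so this does not show that sites are absent. Cdk4, with 4 matches, overlapped between the media, while Cdk6 and Cdk7, with 1 each, did not. A relation between the matches and the RNA levels was not tested. The RNA of Myc itself was at normalized counts of 131 and 657 in serum against 7.27 and 4.85 in 2i. It was high in both serum libraries and low in both 2i libraries (log2-fold change 5.41, limma, adjusted p = 0.753). This fold change rests on few reads in 2i. Its relatives Mycn and Mycl overlapped between the media. Mycn was at 1053 and 894 in serum against 1205 and 573 in 2i, and Mycl at 262 and 129 against 187 and 209. A letter match does not show that a factor binds, and binding was not analysed here.

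Both genes of the CDK-activating kinase were higher in both serum libraries. Cdk7 (ENSMUSG00000069089; mm9 chr13:101466982-101500897, minus strand) was at normalized counts of 1770 and 1614 in serum against 965 and 1146 in 2i. The groups were apart and the replicates close, and its log2-fold change was 0.68 ± 0.42 (SE), with a 95% interval of -0.33 to 1.70 (limma, adjusted p = 0.753). Ccnh (ENSMUSG00000021548; mm9 chr13:85329013-85363074, plus strand) was at normalized counts of 750 and 1018 in serum against 559 and 521 in 2i. Its 2i libraries were almost alike and both lay below serum. The log2-fold change of Ccnh was 0.70 ± 0.44 (SE), with a 95% interval of -0.35 to 1.74 (limma, adjusted p = 0.756). Corrected for GC content and length, the log2-fold changes were smaller, 0.34 for Cdk7 and 0.44 for Ccnh. That of Cdk4 was then the larger, at 0.57, and the median of all genes was 0.099. Their summed level was 600 and 710 normalized counts per kilobase in serum and 400 and 406 in 2i, with a ratio of means of 1.63. Cdk7 made up 38.8% and 29.9% of it in serum and 31.8% and 37.2% in 2i, which overlapped. Mnat1, which encodes the assembly factor of the same complex, was at normalized counts of 709 and 937 in serum against 761 and 911 in 2i, overlapping between the media (log2-fold change -0.030, limma, adjusted p = 0.990).

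How far the replicates of one medium differed varied between the genes. In 4 of the 10, Ccnd3, Ccne2, Cdk2 and Cdk4, the wider of the gaps between replicates of one medium exceeded the difference between the media on the log2 scale. When each serum library was set against each 2i library, the median log2 difference over the 10 genes was 0.85 for the first replicates, 0.82 for the second replicates, 0.53 for serum replicate 1 against 2i replicate 2 and 0.80 for serum replicate 2 against 2i replicate 1. These differences were positive for 9, 8, 9 and 9 of the 10 genes. When any 1 of the 4 libraries was left out, 9 of the 10 genes were still higher in serum by mean log2 value, although not the same 9 each time: Cdk2 fell out without serum replicate 1 and Cdk4 without 2i replicate 1, and Ccnd3 came in. The number more than 2-fold higher in serum was 3 with all libraries, against 9.89% of all genes tested, and 2 to 4 with 1 library left out.

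Levels of different genes can be set in order only per length. In serum ESCs the mean normalized counts per kilobase were 2636 for Cdk4, 1817 for Ccne1, 873 for Ccnd3, 601 for Ccnd1, 590 for Cdk2, 468 for Ccne2, 432 for Ccnh, 223 for Cdk7, 108 for Cdk6 and 93.4 for Ccnd2. Neighbours in this order whose libraries overlapped were Cdk4 and Ccne1, Ccnd1 and Cdk2, Cdk2 and Ccne2, Ccne2 and Ccnh, and Cdk6 and Ccnd2. In 2i ESCs the order was Cdk4 at 2301, Ccnd3 at 934, Ccne1 at 647, Cdk2 at 506, Ccnd1 at 359, Ccnh at 264, Ccne2 at 147, Cdk7 at 139, Cdk6 at 62.4 and Ccnd2 at 13.4 normalized counts per kilobase. There, Ccnd3 and Ccne1, Ccne1 and Cdk2, and Ccne2 and Cdk7 overlapped, and Ccnd2 lay below every other gene. By mean level per length of the longest transcript, Ccne1 thus followed Cdk4 in serum and Ccnd3 in 2i. In 2i replicate 1 Ccnd3 was at 1274 and Ccne1 at 439, but in 2i replicate 2 they were at 593 and 855. The places depend on the length used. For Cdk7 the longest transcript of 7595 bases is well above the median coding transcript of 4595 bases. These lengths are 2053 and 950 bases for Cdk4, 2000 and 1304 for Ccne1, and 2113 and 2043.5 for Ccnd3. The order of Ccne1 and Ccnd3 in 2i therefore rests on the length chosen.

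Some reads could belong to a neighbour, since no strand was given for the counting. The overlapping genes were looked up after the values were seen. Of the 43-base words of the transcripts, 21.0% of those of Ccnd1 also lie in Oraov1, 27.9% of Cdk4 in Tspan31, 15.0% of Ccnd3 in Bysl and 9.27% in a Ccnd3 pseudogene, and 8.57% of Ccne2 in Ints8. Tspan31 was at normalized counts of 488 and 454 in serum against 545 and 912 in 2i, lower in both serum libraries, and its part in the Cdk4 values was not tested. All words of Ccnd2, Ccne1 and Cdk2 were unique.

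The gene whose pattern over the 4 libraries lay nearest to each of the 10 was sought among 74 other genes of the pathway lists, by the Euclidean distance between log2 values centred on each gene's mean. Ccnd2 was nearest to E2f8 (distance 0.47), Ccne1 and Ccne2 to Dusp6 (0.45 and 1.10), Ccnd1 and Cdk4 to Cdk19 (0.34 and 0.38) and Ccnd3 to Ccnt1 (0.28). Cdk6 and Cdk7 were nearest to Ccnf (0.25 and 0.18), Ccnh to Cdk13 (0.097) and Cdk2 to Rbl1 (0.47). For Cdk2, Mycl lay almost as near (0.47), and Rbl1 had a lower mean in serum where Cdk2 had a higher one. The distance from Ccne2 to Dusp6 was the largest of these. Every gene has a nearest gene, so a place in this list does not show a shared pattern.

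The other genes of the pathway are given by list. Over all genes tested, both serum libraries were higher in 20.5% and both 2i libraries in 19.4%. At an unadjusted p below 0.05 in limma, 2.97% of all genes tested were higher in serum. In these lists, limma without a block called 0 genes. With the replicate number as a block it called E2f8, Etv4, Spry4 and Myc higher in serum, and of the markers of later phases Cenpe. At an unadjusted p below 0.05, limma had 5 of the E2F and DP factors, 3 of the ERK response genes, and 1 gene each of the CDK activation and cyclin turnover list, the S-phase and mitotic cyclins with Cdk1, the other CDKs and Myc with its relatives, all higher in serum, and 8 of the 12 G2 and mitosis markers and 1 of the 10 S-phase markers in the same direction. DESeq2 called E2f3, E2f8, Skp2, Ccna2, Spry4 and Myc higher in serum, with the G2 and mitosis markers Cdc20, Cenpe and Kif20a and the S-phase marker Rrm2, and edgeR called none of them. The E2F and DP factors were higher in serum by mean log2 value in 10 of 10, without overlap in 7, with a median of 1.09. Among them E2f8, a repressor that is itself an E2F target, was at normalized counts of 381 and 829 in serum against 105 and 58.2 in 2i, with both serum libraries above both 2i libraries. The pocket proteins Rb1, Rbl1 and Rbl2 had a median of 0.072, and Rbl1 was lower in both serum libraries.

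The CDK inhibitors, which bind these kinases, went mostly the other way by their means: 5 of 6 tested were lower in serum, with a median of -0.50. Cdkn1a, which encodes P21, was at normalized counts of 1089 and 386 in serum against 2825 and 599 in 2i, with a wide spread in both groups that overlapped (log2-fold change -1.003 ± 0.86, SE). Cdkn1b, which encodes P27, was at 887 and 685 in serum against 874 and 645 in 2i, with almost the same values in both media. Cdkn2d was the only inhibitor without overlap, at 1.001 and 97.2 in serum against 140 and 180 in 2i, with serum replicate 1 far below the rest. That is 1 of the 6 tested, where both 2i libraries were higher in 19.4% of all genes tested.

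Of 9 genes of CDK activation and cyclin turnover, 7 had a higher mean in serum, and the median was 0.65. In 5 both serum libraries were higher (20.5% of all genes tested) and in 1 both 2i libraries (19.4% of all genes tested). Skp2, the ubiquitin ligase subunit that targets P27, was at 1129 and 1601 in serum against 485 and 477 in 2i, and the 2i libraries were alike and both low. Fbxw7, the ligase subunit for cyclin E, was at 817 and 1015 in serum against 544 and 691 in 2i, also without overlap, while Ambra1, the receptor for the D-type cyclins, was lower in both serum libraries, at 410 and 629 against 782 and 640.

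The S-phase and mitotic cyclins with Cdk1 had a median of 0.93. Both serum libraries were higher in 3 of the 4 genes, against 20.5% of all genes tested. Ccna2 was at 3666 and 4262 in serum against 1467 and 948 in 2i, and Cdk1 overlapped, at 1173 and 1464 against 869 and 2004. The 13 other cyclins tested had a median of 0.030 and the 13 other CDKs tested a median of 0.19, both lower than the 0.73 of the G1 cyclins and their CDKs. The medians of the 12 G2 and mitosis markers and of the 10 S-phase markers, 1.60 and 0.40, stand on either side of it.

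**Figure D4:**
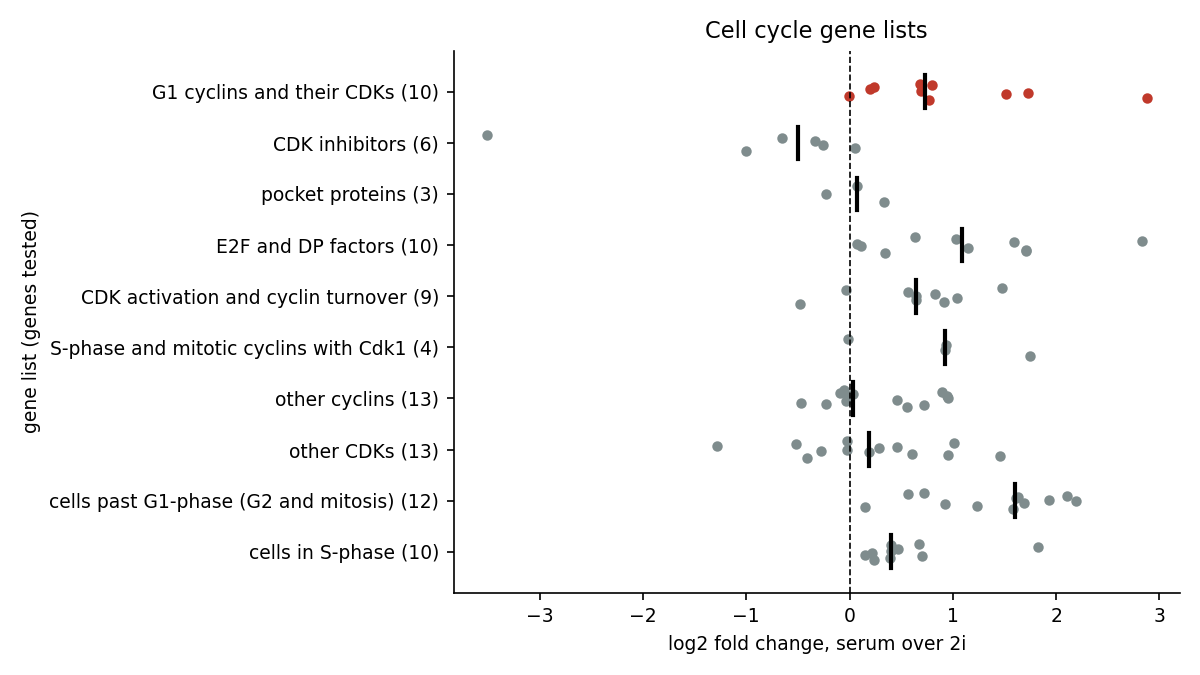
Log2-fold change of serum over 2i for each gene tested in 10 lists of cell-cycle genes (points) with the median of each list (black bars) and the median of all genes tested (dashed line). The G1 cyclins and their CDKs (red, median 0.73) lie between the S-phase markers (0.40) and the G2 and mitosis markers (1.60).

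The genes that answer to the pathways blocked or engaged in 2i medium were read beside them. Of 7 genes induced by ERK signalling, 5 had a higher mean in serum, 4 without overlap (20.5% of all genes tested), with a median of 1.20. Dusp6, an ERK phosphatase, was at 603 and 1288 in serum against 240 and 325 in 2i, both serum libraries being the higher, and Spry4, an inhibitor of the pathway, at 536 and 3973 in serum against 59.2 and 15.5 in 2i. Egr1, an early response gene, went the other way by its mean and overlapped (log2-fold change -2.02 ± 1.49, SE). The 6 genes tested of those induced by beta-catenin had a median of -0.29. In 1 of the 6, Cdx1, both 2i libraries were higher, against 19.4% of all genes tested. Cdx1 was at 206 and 107 in serum against 212 and 219 in 2i, so the higher serum value was close to the lower 2i value.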

How the data were processed

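The authors sequenced rRNA-depleted total RNA, aligned reads to mm9 with Bowtie, quantified genes with MMSeq, kept genes with at least 50 reads in either condition and scaled counts with DESeq2; the deposited unit is a normalized count, a gene-level signal per library. Values were whole multiples of 1 step per library (tolerance 0.01 reads) for 100% of genes, so whole reads were recovered for count models. A gene has 41 to 6150 recovered reads per library among the 10 genes described. Values were compared as log2(normalized count + 1) with limma 3.58.1 (trended eBayes, two-sided, Benjamini-Hochberg) in R 4.3.3 over the 13005 genes with a group mean of at least 50. Calls needed an adjusted p below 0.05 and more than a 2-fold difference. The limma p-values, intervals and SEs rest on a moderated variance. It joins the spread between a gene's 2 libraries per group with that of genes of similar level (prior degrees of freedom 4.41). They therefore do not measure the spread of that gene's own libraries alone. The fold change understates changes of low genes. Alternatives included edgeR 4.0.16, DESeq2 1.42.0, other scalings, a GC content and length correction (mgcv 1.9.3), the replicate number as a block and leaving out each library. The annotation matched 14462 identifiers and 71 did not match. Lengths are of the longest annotated transcript. All 10 members are named, and other genes only from fixed pathway lists and as nearest patterns; overlapping genes and promoter motifs were chosen after values were seen. The members and lists were chosen with earlier results of these data known.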

Additional observations from a re-analysis of the deposited data

How the results depend on the processing

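Over 18 alternatives, the 10 genes gave 180 log2-fold changes, of which 172 kept their direction and side of the threshold, and 7 genes were higher in serum in every alternative run. Those that reversed were Ccnd3, at 0.47 with a GC content and length correction with or without the replicate block, 0.19 without serum replicate 1 and 0.54 without 2i replicate 1, Cdk2 without serum replicate 1 and Cdk4 without 2i replicate 1, and the cause was not tested. Several alternatives could change the p-values but not the fold changes, so the direction was fixed in them. They were the other filters on low values, limma without the variance trend, the replicate block and protein-coding genes alone. The GC content and length correction with the block likewise repeated the fold changes without it. With 1 library left out, Ccnd3 ranged from -0.56 to 0.54, Cdk2 from -0.047 to 0.45 and Cdk4 from -0.15 to 0.62. The median of the 10 genes was 0.65 to 0.79 with 1 library left out and 0.61 to 0.73 otherwise. Upper quartile scaling moved the median of all genes to -0.12. At an unadjusted p below 0.05 in limma, it moved the numbers of genes from 386 higher in serum and 390 in 2i to 304 and 486. Every one of the 10 genes kept its direction under this scaling.

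Of all genes, 0 were called higher in serum and 2 in 2i. The number called higher in 2i was 4 with a mean of at least 200, 1 without the variance trend, and 0 over protein-coding genes alone (chosen after seeing the data), with the GC content and length correction, with edgeR and when any 1 library was left out (range 0 to 0). DESeq2 called 73 higher in serum and 178 in 2i, with 1 of the 10 genes, Ccnd2, among the 73.

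The replicate numbers are not stated to pair the libraries. Across genes, the difference between replicates correlated between serum and 2i with r = 0.48, which with 2 pairs does not settle the pairing. With the replicate block, limma called 44 genes higher in serum and 159 in 2i, and 1 of the 10, Ccnd2. From the other lists it called E2f8, Etv4, Spry4, Myc and the marker Cenpe, all higher in serum. The block with the GC content and length correction called 1 higher in serum and 3 in 2i, and 0 of the 10.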
